A study of Mus musculus with 6 samples.

Results

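Replication-type histone genes were described in RNA pulled down from mouse retina, in eyes with silicone oil and in naive eyes. Genes were taken by symbol, as any gene named as a member of the clusters Hist1 to Hist4, or H1f0, with 10 or more reads in 3 or more of the 6 libraries. The pattern matched 71 of the 55335 genes in the table. Of these, 3 pseudogenes were left out and 40 genes were under the read minimum, 10 of them with 0 reads in every library, so 28 genes remained. Read counts thus chose the genes, and the list was drawn up with earlier results of these data known.

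The silicone oil-induced ocular hypertension under-detected model (SOHU) raises eye pressure as a model of glaucoma, and the oil had been placed in the anterior chamber 1 week before the retinas were taken. Naive mice were the other group, and each group had 3 libraries. The labels carry the same note on oil injection for every library, naive ones included, so groups follow the title and the labelled condition. All mice were C57BL/6, aged 10 weeks and labelled wild type. Retinas were homogenised and an anti-HA antibody with Protein G magnetic beads was used to pull down material for RNA isolation. HA is a short peptide tag, and the labels do not say which protein carried it or in which cells it was made, although they name the cells as retinal ganglion cells. Axons of these neurons make up the optic nerve. The labels do not say whether libraries came from separate animals or pools, so a p-value speaks for the spread among these libraries alone, and that spread may be technical.

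The libraries held 21691354 to 26824919 counted reads, of which the 28 histone genes took 0.0751% to 0.102% in SOHU and 0.0509% to 0.0579% in naive libraries. SOHU replicate 3 stood apart from the other SOHU libraries: on the first principal component it lay at -9.88, with the other SOHU libraries at -62.5 and -49.5 and the naive libraries at 23.6 to 63.3. Of 13 retinal ganglion cell markers tested, 12 were lower in SOHU, and their summed level was 1822 to 2647 CPM (counts scaled by library total and TMM factor) in SOHU and 3890 to 6629 CPM in naive libraries. Of 11 Müller glia and astrocyte markers, 8 were higher in SOHU, with summed levels of 18086 to 35326 CPM in SOHU and 10791 to 13303 CPM in naive libraries. Both kinds of marker were present in every library. In bulk pull-downs of this kind, fewer cells of a type, less RNA per cell and a difference in what the pull-down recovered cannot be told apart.

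Histones are the proteins around which nuclear DNA is wound. H2A, H2B, H3 and H4 form the nucleosome core, and the linker histone H1 binds where DNA enters and leaves it. Replication-type histone genes lie in clusters, have no introns or few, and are transcribed mostly in S phase, when new DNA needs new nucleosomes. Their mRNAs typically end not in a poly(A) tail but in a short stem-loop, which is bound by the stem-loop binding protein SLBP. Cells that no longer divide, such as mature neurons, rely largely on replacement histones such as H3.3 and H2A.Z, whose mRNAs are polyadenylated. Several cluster genes also give polyadenylated read-through mRNAs in differentiated cells.

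The 28 genes comprised 5 of 7 matching H1 genes, 6 of 18 H2A genes, 7 of 18 H2B genes, 2 of 12 H3 genes and 8 of 13 H4 genes. By position, 20 were in the Hist1 cluster on chromosome 13, 4 in Hist2 on chromosome 3, 2 in Hist3 on chromosome 11 and 1 in Hist4 on chromosome 6. H1f0 on chromosome 15 matched the symbol pattern but encodes the replacement linker histone H1.0, so the name replication-type does not hold for it. The name is uncertain for Hist2h2be too, which encodes H2BE, a variant described in mouse olfactory neurons, and in whose transcript no stem-loop was found. No stem-loop was found either in the annotated transcript of Hist1h2bc, the most abundant of the 28 genes. Its 1156 exon bases are spread over chr13:23684199-23692908, and which form of mRNA its reads came from was not tested. Just inside the read minimum were Hist2h2ac, with 5, 7 and 7 reads in SOHU and 29, 13 and 12 reads in naive libraries, and Hist1h2bq, with 14, 17 and 17 reads in SOHU and 3, 6 and 8 reads in naive libraries. Hist2h2ac met the minimum in naive libraries alone and Hist1h2bq in SOHU libraries alone, so that their groups had to differ, and their values are a description without a test. Hist4h4 and Hist1h4k were also just inside, with 2, 20 and 14 and with 9, 10 and 15 reads in SOHU, and with 2, 9 and 10 and with 6, 12 and 9 reads in naive libraries. Just outside were Hist1h2ag, Hist1h2bj, Hist1h3e and Hist1h2bf, each with 10 or more reads in 2 libraries.

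The stem-loop was looked for first, since it defines the replication-type mRNA. In the GENCODE M21 transcripts, whose genes have the coordinates of the files on mm10, 22 of the 28 genes held one of 5 forms of the histone stem-loop within a transcript. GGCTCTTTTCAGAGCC was found in 14 genes, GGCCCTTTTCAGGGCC in 4, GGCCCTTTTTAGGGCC in 2, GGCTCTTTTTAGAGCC in 1 and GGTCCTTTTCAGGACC in 1. Over all 55450 genes with a transcript, 74 genes (0.134%) held a form of it, and 46 of those matched the histone pattern. The 6 genes in which these letters were not found were H1f0, Hist1h1b, Hist1h2bc, Hist1h2bq, Hist1h4k and Hist2h2be. The annotated transcript of Hist1h4k has 312 bases, and in the other H4 genes the stem-loop began at base 351 or later. The search could thus not reach a stem-loop at that place in Hist1h4k. An absence here is one from the annotated transcript. The stem-loops of 7 genes named below are shown 5′ to 3′ on the gene's strand with 5 bases on each side, the stem-loop in capitals:
Hist1h1c, chr13:23739507-23739532, plus strand: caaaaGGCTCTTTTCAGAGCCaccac
Hist1h2ac, chr13:23683472-23683497, minus strand: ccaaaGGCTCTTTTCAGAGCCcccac
Hist1h2bg, chr13:23571838-23571863, plus strand: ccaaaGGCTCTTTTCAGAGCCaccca
Hist2h3c2, chr3:96238480-96238505, minus strand: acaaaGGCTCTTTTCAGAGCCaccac
Hist1h3d, chr13:23576239-23576264, plus strand: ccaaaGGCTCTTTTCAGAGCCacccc
Hist1h4i, chr13:22040961-22040986, minus strand: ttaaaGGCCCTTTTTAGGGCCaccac
Hist1h4h, chr13:23531453-23531478, plus strand: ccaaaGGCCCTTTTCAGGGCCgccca
These 7 were shown because they hold the letters and were higher in SOHU at an edgeR adjusted p under 0.05. Their rise therefore says nothing about the stem-loop, and the other genes with a stem-loop did not pass. Among the 28 genes the form in Hist1h4i was otherwise found in Hist2h4 alone.

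Most annotated transcripts went on well beyond the stem-loop, where a mature replication-type mRNA would end. The transcript ran at least 100 bases past it in 18 of the 22 genes and less in 4, with a median of 603 bases and a range of 3 to 4884. The hexamer AATAAA, the usual poly(A) signal, was found in the last 50 bases of a transcript in 11 of the 28 genes. Among the genes with the longer transcripts the median log2 fold change, SOHU over naive, was 0.76 and 6 of 18 were higher in SOHU at an edgeR adjusted p under 0.05, where 8.02% of all genes tested were. Among those with under 100 bases past the stem-loop it was 0.51, with 1 of 4 higher, and among those without the letters 0.45, with 1 of 6 higher. These counts are too small to set the kinds apart, and a gene's reads were not divided between the ends of its transcripts.

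**Figure D1:**
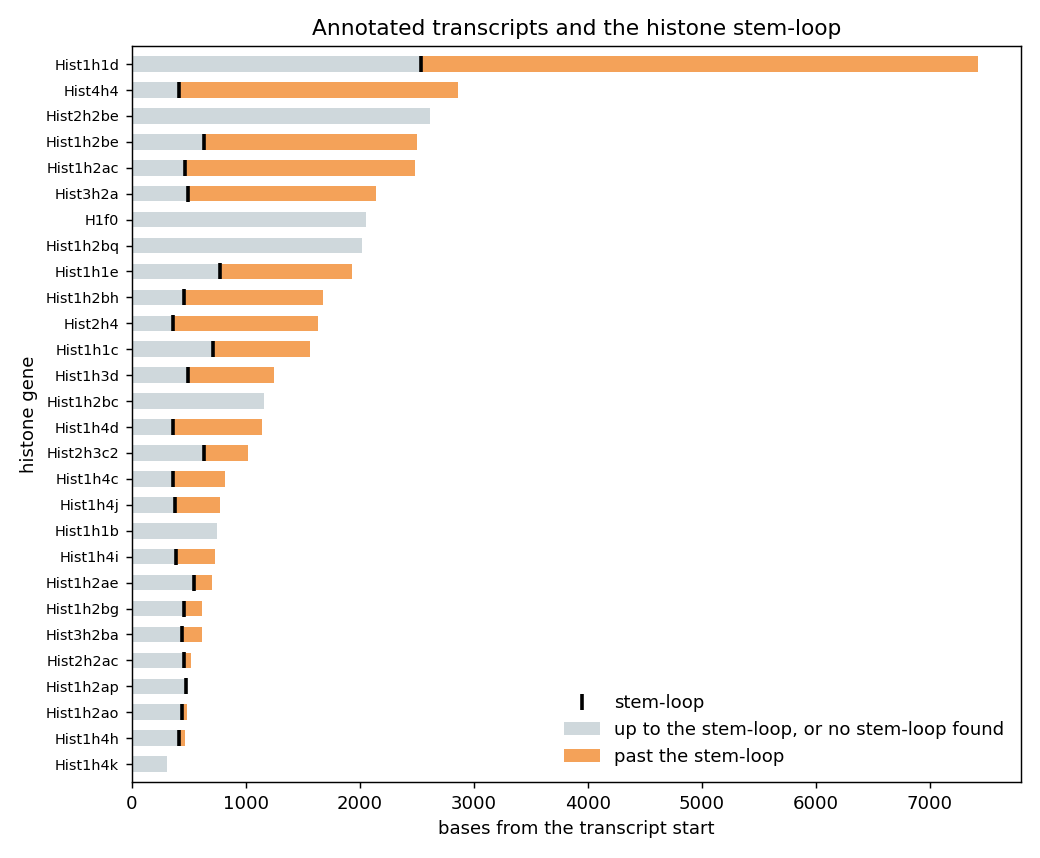
Longest annotated transcript of each of the 28 histone genes, in bases from its start, with the stem-loop as a black mark and the sequence past it in orange. The transcripts ran 3 to 4884 bases past the stem-loop, and 6 genes had none of the stem-loop forms in an annotated transcript.

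The promoters were compared for 3 motifs known from histone genes, since neighbouring histone genes are often transcribed away from each other from a shared interval. RefSeq windows of GRCm38.p6, 250 bases before to 50 bases after the start, were matched for 25 of the 28 genes. Hist1h2bc, Hist2h2be and Hist2h4 had no matched window. On either strand, TATAAA was present in 13 of the 25 genes against 13.6% of all 32851 promoters, and CCAAT in 19 of 25 against 37.4%. ATTTGCAT, the octamer known from H2B promoters, was present in 6 of 25 genes, namely 4 of 6 H2A and 2 of 5 H2B genes, against 1.74% of all promoters. CCAAT was present in all 6 H2A and all 5 H2B genes but in 2 of 7 H4 genes. The windows of Hist1h2ae and Hist1h2bg overlap and hold the same ATTTGCAT site. Those of Hist1h2bq and Hist1h2ao hold the same CCAAT sites, so genes with a motif are not separate sites. Hist1h2be had 2 windows, and ATTTGCAT lay only in that at chr13:23585921-23586220. The background counts each promoter window. A match is a description of letters and not a site of binding. The windows of 4 genes with unlike values are shown 5′ to 3′ on the gene's strand, with the 3 motifs and their reverse complements in capitals. Hist1h2ac and Hist1h2bg lie in shared H2A and H2B intervals, and the H4 genes Hist1h4i and Hist1h4d had similar mean levels but unlike log2 fold changes:
Hist1h2ac, chr13:23683910-23684209, minus strand: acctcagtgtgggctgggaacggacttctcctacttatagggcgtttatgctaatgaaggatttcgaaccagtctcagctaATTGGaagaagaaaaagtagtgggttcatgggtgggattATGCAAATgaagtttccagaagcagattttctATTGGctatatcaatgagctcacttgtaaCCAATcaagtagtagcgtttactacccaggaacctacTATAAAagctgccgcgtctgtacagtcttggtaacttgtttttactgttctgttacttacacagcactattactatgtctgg
Hist1h2bg, chr13:23571150-23571449, plus strand: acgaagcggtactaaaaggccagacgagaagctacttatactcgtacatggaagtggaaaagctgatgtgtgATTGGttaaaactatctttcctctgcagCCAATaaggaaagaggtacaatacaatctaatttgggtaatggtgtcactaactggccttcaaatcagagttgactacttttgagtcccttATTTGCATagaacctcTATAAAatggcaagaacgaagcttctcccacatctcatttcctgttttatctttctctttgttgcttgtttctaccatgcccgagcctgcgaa
Hist1h4i, chr13:22041313-22041612, minus strand: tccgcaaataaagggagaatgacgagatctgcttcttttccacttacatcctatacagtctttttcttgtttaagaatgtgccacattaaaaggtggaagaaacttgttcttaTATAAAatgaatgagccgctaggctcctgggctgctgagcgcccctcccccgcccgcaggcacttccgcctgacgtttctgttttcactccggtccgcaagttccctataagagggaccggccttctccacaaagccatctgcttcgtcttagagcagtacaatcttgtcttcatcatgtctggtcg
Hist1h4d, chr13:23581318-23581617, plus strand: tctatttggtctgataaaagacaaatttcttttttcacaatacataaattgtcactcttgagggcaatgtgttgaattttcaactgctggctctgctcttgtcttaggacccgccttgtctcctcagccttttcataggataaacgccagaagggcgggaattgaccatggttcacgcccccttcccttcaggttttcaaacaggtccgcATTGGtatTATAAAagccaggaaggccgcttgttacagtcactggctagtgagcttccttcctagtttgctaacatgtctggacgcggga
The window of Hist1h2ac reached the annotated start of Hist1h2bc at position 23684199 on the other strand, and so covered the whole interval between these genes.

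Histone genes are close copies of one another, so the share of each gene's sequence that recurs elsewhere bears on how well its reads could be assigned. The share of a gene's 50-base words that was also present in another gene had a median of 24.7% over the 28 genes, with a range of 0 to 97.3%. It was 97.0% at the median over the 10 genes with 0 reads in all libraries, and 63.1% over the 30 genes with some reads but under the minimum. All 5 genes whose words were all shared (100%) were at 0 reads in every library. How the counting treated reads that align to several places is not given in the sources used here, so a 0 in such a gene does not show that it was silent. Among the 8 genes called higher in SOHU the share was 8.54% to 63.5%. Hist1h2bq, Hist1h2ao and Hist1h2ap had 90% or more of their words shared, and their counts are uncertain.

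**Figure D2:**
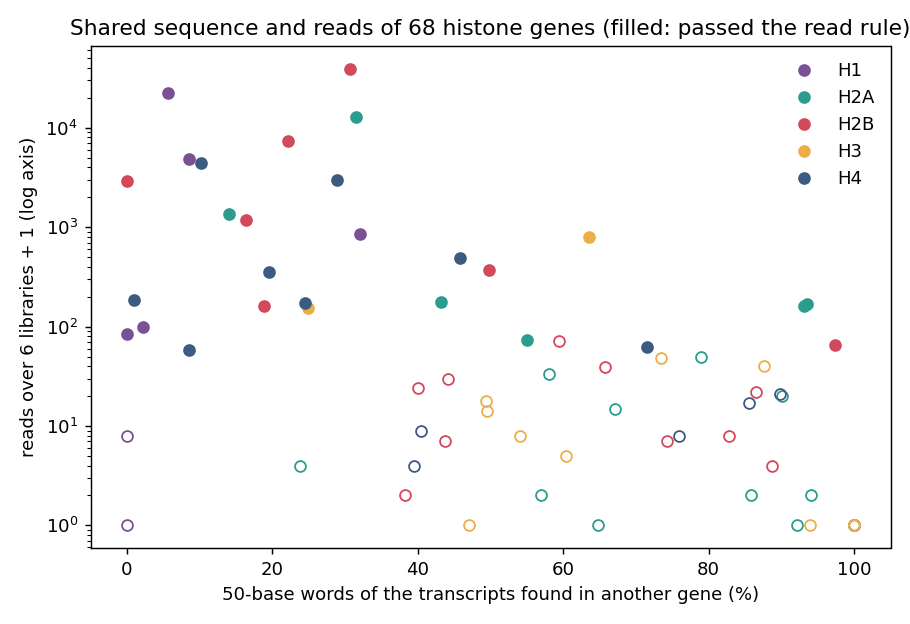
Reads over all 6 libraries plus 1 (log axis) against the percent of a gene's 50-base words also found in another gene, for the 68 matching histone genes that are not pseudogenes, coloured by class and filled where the gene met the read minimum. Genes with all words shared lie at 0 reads.

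Across the 28 histone genes, 8 were higher in SOHU than in naive libraries and 0 were lower. They were the linker histone gene Hist1h1c, the H2A gene Hist1h2ac, the H2B genes Hist1h2bc and Hist1h2bg, the H3 genes Hist2h3c2 and Hist1h3d, and the H4 genes Hist1h4i and Hist1h4h, by 1.67-fold to 4.77-fold. The test was edgeR's quasi-likelihood test over all 17687 genes with enough reads, at a Benjamini-Hochberg adjusted p under 0.05. Over all these genes 13.9% differed, 8.02% higher and 5.93% lower, so 28.6% of the histone genes were higher against a background of 8.02%. Leaving aside Hist2h2ac and Hist1h2bq, edgeR had 13 of 26 histone genes higher and 1 lower at an unadjusted p under 0.05, against 16.4% and 14.8% of all genes. Of the same 26, DESeq2 called 11 higher, against 11.4% of all genes, and limma-voom 9 higher, against 7.75%, and each called 0 lower. The median log2 fold change was 0.69 over the 28 histone genes, also 0.69 over these 26, and 0.01 over all genes. Of the 26, 22 were above 0 and 4 below, where 51.1% of all genes were above 0. These shares describe genes that were chosen with earlier results known and kept by their reads. Of the 21 histone genes with 10 or more reads in all 6 libraries, a count made after seeing the data, 7 (33.3%) were higher, with a median log2 fold change of 0.68.

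Leaving aside Hist2h2ac and Hist1h2bq, all 3 SOHU libraries lay above all 3 naive libraries in 14 of 26 histone genes (53.8%), where the background over all genes was 19.3%. All 3 lay below in 1, Hist3h2ba, where the background was 19.7%, and the libraries overlapped in 11. Calls were more frequent at higher levels. At a mean of 2 CPM or more, 7 of 15 histone genes were higher, against 9.66% of 13854 genes, and below it 1 of 13, against 2.09% of 3833 genes. The number of calls changed with the libraries used, in the histone genes as in all genes. Leaving out SOHU replicate 3 gave 9 higher histone genes and 10.9% of all genes higher, leaving out SOHU replicate 1 gave 7 and 6.19%, and leaving out SOHU replicate 2 gave 1 and 1.6%. Without naive replicate 2 there were 4 and 3.47%, and without naive replicate 1 or naive replicate 3 edgeR called 0 genes of any kind. At an unadjusted p under 0.05 there were 3919 genes (21.5%) in the first of these cases and 4251 genes (23.2%) in the other. DESeq2 called 6 histone genes higher in the first, with 6.06% of all genes higher, and 8 in the other, with 7.17%, while limma-voom called 0 genes of any kind in either. In the 6 cases the log2 fold changes of the 8 genes lay between 0.63 and 2.65. Their sign could hardly change, since in these genes every SOHU library lay above every naive library.

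**Figure D3:**
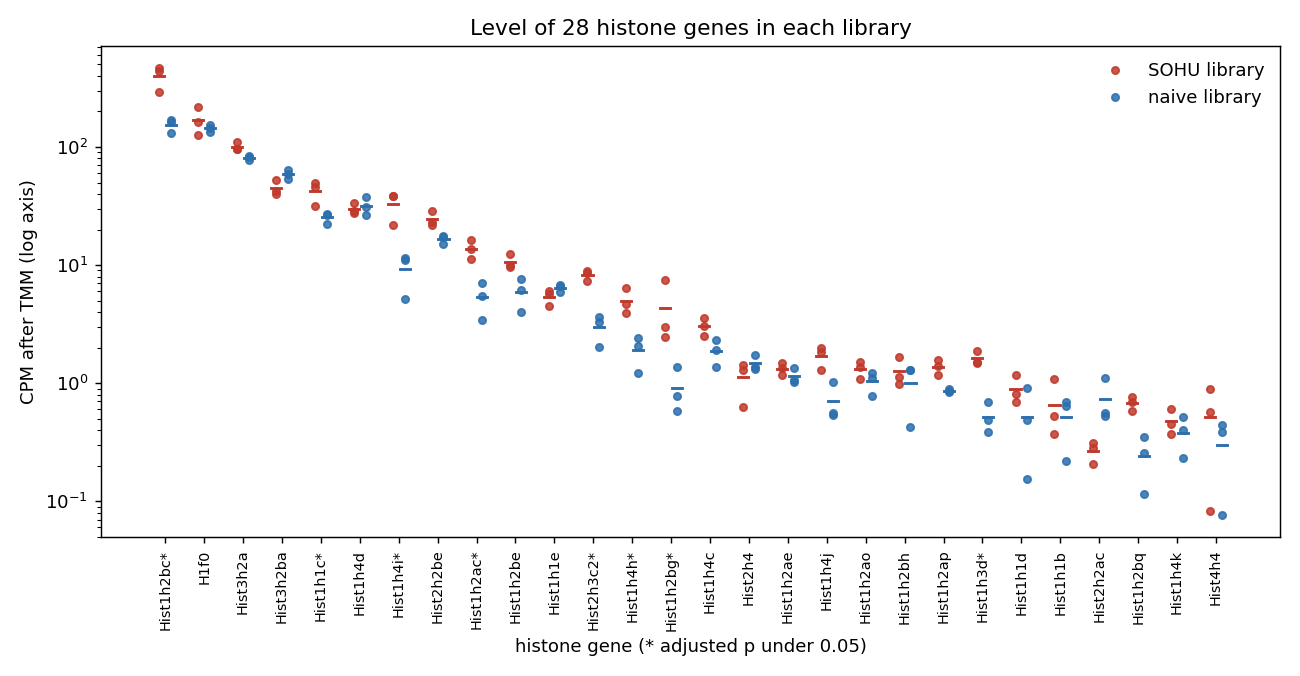
Level of the 28 histone genes in CPM after TMM (log axis), ordered by mean level, with 1 point per library and a bar at the mean of each group (3 SOHU and 3 naive libraries). In the 8 genes marked with an asterisk, called at an adjusted p under 0.05, every SOHU point lies above every naive point.

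The linker histones were led by H1f0. It stood at 220, 164 and 127 CPM in SOHU and 153, 145 and 133 CPM in naive libraries. The SOHU libraries spread around the naive ones, with replicate 3 below all of them, and the log2 fold change of 0.24 did not pass (edgeR adjusted p = 0.415). Hist1h1c (chr13:23738808-23740367, plus strand), which encodes H1.2, stood at 45.9, 49.6 and 31.5 CPM in SOHU and 22.3, 27.2 and 26.4 CPM in naive libraries. The groups did not overlap and Hist1h1c rose 1.67-fold (log2 fold change 0.74, SE 0.19, edgeR adjusted p = 0.0336). Hist1h1e, which encodes H1.4, had 5.98, 4.48 and 5.64 CPM in SOHU and 6.65, 5.88 and 6.76 CPM in naive libraries. Its groups overlapped in a narrow range, and its log2 fold change was -0.26 (edgeR adjusted p = 0.447). Hist1h1e shares 496 exon bases with Hist1h2be on the same strand, so reads there cannot be assigned to either with certainty. Hist1h1d and Hist1h1b stayed under 2 CPM in every library, with overlapping groups and log2 fold changes of 0.79 and 0.33.

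Among the H2A genes the highest level was that of Hist3h2a. It had 95.8, 110 and 97.1 CPM in SOHU and 77.4, 81.8 and 83.3 CPM in naive libraries. All SOHU libraries were higher, by a small margin, and the log2 fold change of 0.32 (SE 0.12) did not pass (edgeR adjusted p = 0.111). Hist3h2a shares 708 exon bases, 33.0% of its length, with Trim17, a gene on the same strand with 131 reads per library on average. Hist1h2ac (chr13:23681467-23683948, minus strand) had 13.7, 16.3 and 11.2 CPM in SOHU and 3.42, 7.08 and 5.48 CPM in naive libraries. Every SOHU library was well above every naive library, and Hist1h2ac rose 2.58-fold (log2 fold change 1.37, SE 0.28, edgeR adjusted p = 0.0174). The other H2A genes were near 1 CPM. Hist1h2ae, Hist1h2ao and Hist1h2ap had log2 fold changes of 0.21, 0.34 and 0.68, none past the threshold. Hist2h2ac had 0.207, 0.314 and 0.284 CPM in SOHU and 1.12, 0.558 and 0.53 CPM in naive libraries, the reads that chose it.

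The H2B gene Hist1h2bc (chr13:23684199-23692908, plus strand) was the most abundant of all 28 and held 37.8% of their mean summed level. It stood at 443, 464 and 292 CPM in SOHU and 132, 162 and 169 CPM in naive libraries. SOHU replicate 3 was the lowest of its group but still above every naive library. Hist1h2bc rose 2.59-fold (log2 fold change 1.37, SE 0.19, edgeR adjusted p = 0.00952). Hist1h2bg (chr13:23571396-23572013, plus strand) had 7.47, 3.00 and 2.48 CPM in SOHU and 0.577, 0.772 and 1.37 CPM in naive libraries. SOHU replicate 1 was far above the other libraries of Hist1h2bg, and the groups did not overlap. The 4.77-fold rise of Hist1h2bg was the largest among the 8 called genes (log2 fold change 2.25, SE 0.50, edgeR adjusted p = 0.0223), and without SOHU replicate 1 its log2 fold change was the lowest of its leave-one-out values, at 1.59.

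The other H2B genes did not pass. Hist2h2be had 28.9, 23.1 and 21.9 CPM in SOHU and 15.2, 17.3 and 17.5 CPM in naive libraries, without overlap, and a log2 fold change of 0.56 (SE 0.17, edgeR adjusted p = 0.0524). DESeq2 called it, at an adjusted p of 0.017. Hist1h2be had 9.54, 12.4 and 9.95 CPM in SOHU and 4.04, 7.64 and 6.09 CPM in naive libraries. Its groups did not overlap, and its log2 fold change of 0.84 (SE 0.26) narrowly missed the threshold in edgeR (adjusted p = 0.0572) and passed it in DESeq2 (0.0147) and limma-voom (0.0468). Hist3h2ba, in the same cluster as Hist3h2a, had 52.6, 42.1 and 39.8 CPM in SOHU and 64.3, 58.9 and 53.5 CPM in naive libraries. All of its SOHU libraries were lower, with a log2 fold change of -0.39 (SE 0.15, edgeR adjusted p = 0.113), and it passed without SOHU replicate 1 (-0.53, adjusted p = 0.0382). Hist1h2bh, near 1 CPM, had a log2 fold change of 0.35 with overlapping groups. Hist1h2bq had 0.581, 0.761 and 0.69 CPM in SOHU and 0.115, 0.257 and 0.353 CPM in naive libraries, again the reads that chose it.

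Both H3 genes that met the read minimum were higher in SOHU. Hist2h3c2 (chr3:96238108-96239127, minus strand) had 7.26, 8.91 and 8.61 CPM in SOHU and 2.04, 3.30 and 3.67 CPM in naive libraries. Every SOHU library was well above every naive library, and Hist2h3c2 rose 2.75-fold (log2 fold change 1.46, SE 0.27, edgeR adjusted p = 0.014). Of its 50-base words 63.5% recur in other genes, the highest share among the called genes, so its count is uncertain in that respect. Hist1h3d (chr13:23575763-23577011, plus strand) had 1.49, 1.88 and 1.5 CPM in SOHU and 0.692, 0.386 and 0.486 CPM in naive libraries, from 36, 42 and 37 reads and 18, 9 and 11 reads. The groups did not overlap, and Hist1h3d rose 3.08-fold (log2 fold change 1.62, SE 0.41, edgeR adjusted p = 0.0319).

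Of the 8 H4 genes, which encode the same core histone, 2 rose and 6 did not pass in edgeR. Hist1h4i (chr13:22040636-22041362, minus strand) had 38.6, 38.7 and 22.0 CPM in SOHU and 5.11, 11.1 and 11.4 CPM in naive libraries. SOHU replicate 3 was the lowest of its group and naive replicate 1 the lowest of all, and Hist1h4i rose 3.61-fold (log2 fold change 1.85, SE 0.32, edgeR adjusted p = 0.0128). Hist1h4d, a gene of like level, had 27.8, 28.9 and 33.7 CPM in SOHU and 26.3, 31.0 and 37.7 CPM in naive libraries. The range of its SOHU libraries lay within that of the naive libraries, with a log2 fold change of -0.07 (SE 0.17, edgeR adjusted p = 0.809). Hist1h4h (chr13:23531050-23531519, plus strand) had 4.65, 6.45 and 3.90 CPM in SOHU and 1.23, 2.06 and 2.43 CPM in naive libraries. The groups did not overlap, and Hist1h4h rose 2.62-fold (log2 fold change 1.39, SE 0.33, edgeR adjusted p = 0.0262).

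The remaining H4 genes did not pass in edgeR. Hist1h4j had 1.29, 1.97 and 1.83 CPM in SOHU and 0.538, 0.558 and 1.02 CPM in naive libraries, without overlap. Its log2 fold change of 1.27 (SE 0.42) missed the threshold in edgeR (adjusted p = 0.0715) and passed it in DESeq2 (0.0466). Hist1h4c had 2.53, 3.58 and 3.04 CPM in SOHU and 1.92, 1.37 and 2.34 CPM in naive libraries, also without overlap, at 0.70 (adjusted p = 0.157). Hist2h4, Hist1h4k and Hist4h4 stayed under 2 CPM in every library, with overlapping groups and log2 fold changes of -0.39, 0.33 and 0.78.

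**Figure D4:**
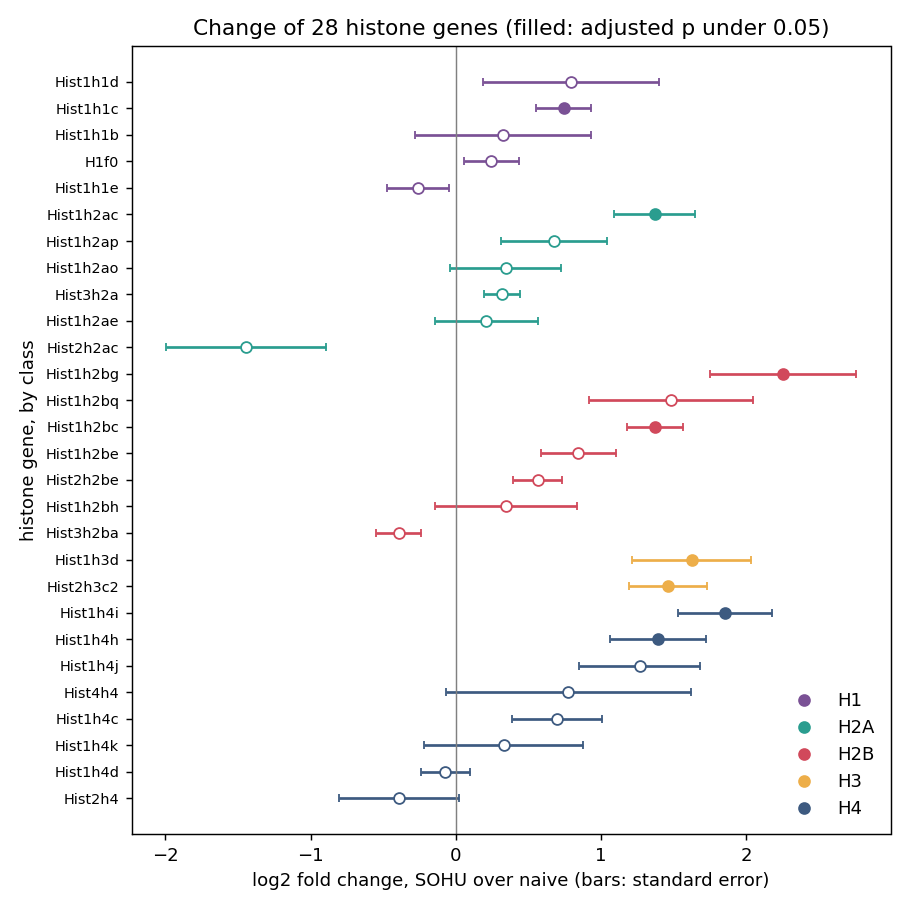
Log2 fold change of each of the 28 histone genes, SOHU over naive, with its standard error as the bar, grouped and coloured by histone class, and filled where the edgeR adjusted p was under 0.05. Filled points run from 0.74 for Hist1h1c to 2.25 for Hist1h2bg, and 5 genes lie below 0.

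Levels can be compared between genes only per length. On CPM per kilobase of exon (RPKM, mean of all 6 libraries), Hist1h2bc stood first at 239.8, ahead of Hist3h2ba at 84.5 and H1f0 at 76.4. Hist3h2a followed at 42.3, Hist1h4i at 29.1, Hist1h4d at 27.2 and Hist1h1c at 21.7. The median RPKM was 2.73 over the 28 histone genes and 3.74 over all genes tested. The 8 called genes ranged from 0.859 RPKM in Hist1h3d to the level of Hist1h2bc. In RPKM, Hist1h4i averaged 45.6 in SOHU and 12.6 in naive libraries, above Hist1h4d at 26.5 RPKM in SOHU and below its 27.8 RPKM in naive libraries.

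Summed over all 28 genes, the level was 1016, 990.5 and 722.8 CPM in SOHU and 524.6, 571.9 and 570.2 CPM in naive libraries. The SOHU libraries were all higher, and the ratio of the means was 1.64. Without Hist1h2bc the ratio was 1.27, still without overlap. By class, the summed level without overlap was higher in SOHU for H2A (ratio 1.32), H2B (2.04), H3 (2.81) and H4 (1.58). H1 had a ratio of 1.24 with overlapping groups, and H2B without Hist1h2bc one of 1.03, also overlapping.

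**Figure D5:**
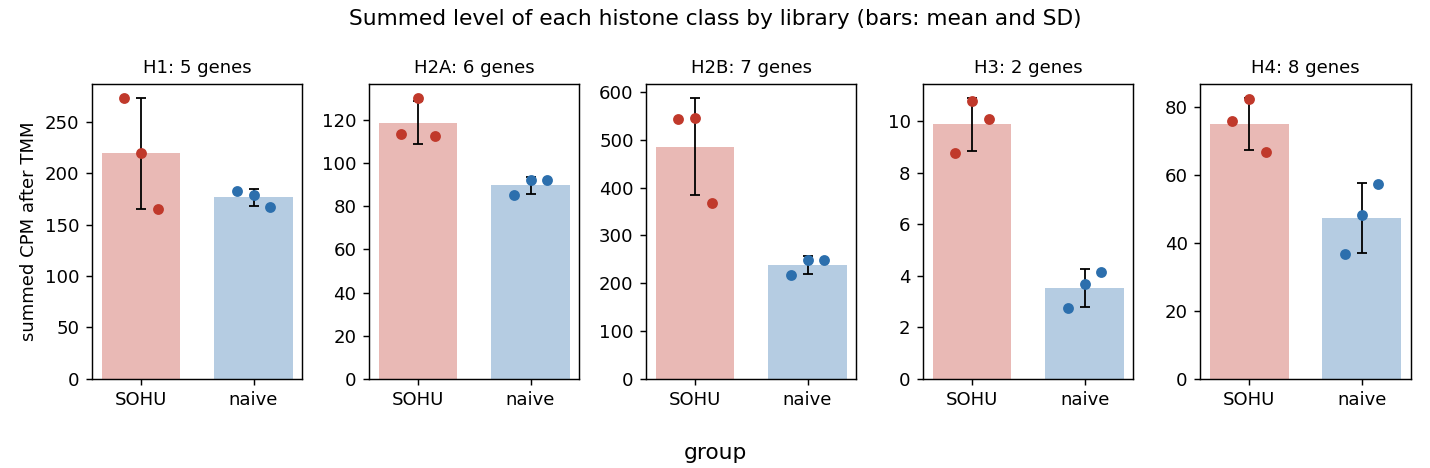
Summed level of the histone genes of each class in CPM after TMM, with 1 point per library and the bar at the mean of 3 libraries with its SD, for SOHU and naive. The classes have separate axes that start at 0, and the SOHU and naive points overlap in H1 alone.

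By cluster, the 20 Hist1 genes together had 610.5, 639.7 and 426.6 CPM in SOHU and 209.8, 263.8 and 276.2 CPM in naive libraries, a ratio of 2.24. Most of this was Hist1h2bc, with 399.9 CPM of a mean of 558.9 CPM in SOHU. In naive libraries it had 154.5 CPM of 249.9 CPM, so that gene held most of the summed level in both groups. No Hist1 ratio was taken without it. The 4 Hist2 genes had a ratio of 1.57 and did not overlap. The 2 Hist3 genes had 148.4, 152.0 and 136.8 CPM in SOHU and 141.7, 140.7 and 136.8 CPM in naive libraries, a ratio of 1.04, with Hist3h2a above and Hist3h2ba below in SOHU. Of the 8 called genes, 7 were in Hist1 and 1, Hist2h3c2, in Hist2. No test of the difference between clusters was made.

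In 4 places a pair of the 28 genes was transcribed in opposite directions from starts 175 to 267 bases apart. Hist1h2ac and Hist1h2bc start 250 bases apart and had log2 fold changes of 1.37 and 1.37, both called, although their mean levels in SOHU were 13.7 and 399.9 CPM. Hist1h2ae and Hist1h2bg start 175 bases apart, and their log2 fold changes were 0.21 and 2.25, Hist1h2bg alone called. The pairs Hist2h2ac with Hist2h2be and Hist1h2bq with Hist1h2ao each hold a gene that met the read minimum in 1 group alone. Log2 fold changes were thus alike in the first pair and unlike in the other, and no test of the difference within a pair was made.

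Other genes of the same processes were read from lists. Of 32 DNA replication genes tested, edgeR called 1 higher and 1 lower, with a median log2 fold change of 0.05 and with 5 higher and 2 lower at an unadjusted p under 0.05. DESeq2 called 3 higher and 2 lower and limma-voom 1 higher and 1 lower. E2f1, a transcription factor that drives S-phase entry, had 22.4, 20.9 and 21.3 CPM in SOHU and 13.7, 11.4 and 10.2 CPM in naive libraries and rose (log2 fold change 0.87, edgeR adjusted p = 0.0162). Ccne1, cyclin E1, had 14.2, 15.3 and 18.1 CPM in SOHU and 28.1, 22.4 and 23.4 CPM in naive libraries and fell (-0.63, adjusted p = 0.0387). Neither gene's groups overlapped. Mcm10 and Tyms had log2 fold changes of 1.68 and 0.77 and did not pass (adjusted p = 0.0773 and 0.0794). Pcna, the sliding clamp of DNA polymerase, averaged 69.5 CPM in SOHU and 69.5 CPM in naive libraries. Of 11 cycling-cell markers, 5 had enough reads to be tested and 0 passed in edgeR, with 0 at an unadjusted p under 0.05 and 0 in DESeq2 or limma-voom. Their summed level was 10.6, 12.7 and 8.69 CPM in SOHU and 6.73, 7.21 and 7.73 CPM in naive libraries, higher in every SOHU library, while Mki67, Top2a, Bub1, Aurkb, Ccnb1 and Ccnb2 were too low to test. Ccna2, the highest of them, averaged 4.31 CPM in SOHU and 2.83 CPM in naive libraries (log2 fold change 0.61, adjusted p = 0.199).

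Of 18 factors that make, process or degrade histone mRNA, 0 passed in edgeR, DESeq2 or limma-voom, with 1 higher and 3 lower at an unadjusted edgeR p under 0.05. Their median log2 fold change was -0.06. Slbp averaged 58.6 ± 8.35 CPM in SOHU and 60.8 ± 5.17 CPM in naive libraries (SD, n = 3 each). Lsm11 and Lsm10, parts of the particle that cuts histone pre-mRNA, had log2 fold changes of -0.51 and 0.40 (edgeR adjusted p = 0.0881 and 0.135). Cpsf2 and Sympk, of the cleavage complex, had -0.35 and -0.48 (0.0996 and 0.121). Of 14 histone chaperones 0 passed in edgeR, DESeq2 or limma-voom, with 1 higher at an unadjusted edgeR p under 0.05. Asf1a and Nap1l1, which carry histones H3 with H4 and H2A with H2B, had log2 fold changes of 0.33 and -0.28.

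Of 10 replacement histone genes tested, H1f0 not being counted again, edgeR called 1 higher and 1 lower, with 5 higher and 1 lower at an unadjusted p under 0.05. DESeq2 called 3 higher and 1 lower and limma-voom 1 higher and 1 lower, and the median log2 fold change was 0.21. H2afv, which encodes H2A.Z.2, had 347, 351 and 275 CPM in SOHU and 228, 198 and 221 CPM in naive libraries and rose (log2 fold change 0.59, edgeR adjusted p = 0.0264). H2afy2, which encodes macroH2A2, had 23, 20.6 and 24.3 CPM in SOHU and 40.5, 35 and 37 CPM in naive libraries and fell (-0.73, adjusted p = 0.0162). H3f3b, a gene for H3.3, averaged 2032 CPM in SOHU and 1463 CPM in naive libraries, and its log2 fold change of 0.47 did not pass (adjusted p = 0.125). Both called genes had groups without overlap. Over all replacement histone genes but H1f0, the summed level was 3613, 4396 and 3277 CPM in SOHU and 3005, 3000.5 and 2765 CPM in naive libraries, higher in every SOHU library.

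Markers of other cells went in different directions, by cell type. The summed level of 13 microglia and leukocyte markers was 130.3, 80.7 and 45.2 CPM in SOHU and 8.19, 32.6 and 20.6 CPM in naive libraries, and 5 of 12 tested were higher. The endothelial and pericyte markers summed to 745.6 to 1066 CPM in SOHU and 359.9 to 407.3 CPM in naive libraries, with 3 of 6 tested higher. The glial markers were given above with the libraries. None of these markers was at 0 in all libraries. Rod, cone, pigment epithelium, lens and erythroid markers overlapped between the groups in summed level, as did bipolar cell markers, and amacrine and horizontal cell markers were lower in every SOHU library, with 3 of 8 called. Whether a change in the mixture of cells had a part in the histone values was not tested. Scaled to the ganglion cell markers instead of TMM, 23 of the 28 histone genes were higher, as were 12003 of all genes, with medians of 1.76 over the histone genes and 1.09 over all genes.

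Other RNAs without a poly(A) tail were read from a list of short noncoding RNAs alone, and those were nearly absent from the libraries. Of 14 such RNAs listed, 12 were in the table. Their summed level was 1.62 to 2.64 CPM in SOHU and 1.63 to 2.47 CPM in naive libraries, and Terc, Rmrp, Rnu11, Rnu7 and Rpph1 were at 0 reads in all of them. Rn7sk, which made up most of the sum, averaged 1.39 CPM in SOHU and 1.38 CPM in naive libraries (log2 fold change 0.02, edgeR adjusted p = 0.985). How the library preparation selected RNA is not given in the sources used here, and its part in the levels of mRNAs that end in a stem-loop was not tested. The nuclear long RNAs were higher in summed level in every SOHU library, although 0 of 6 passed in edgeR, with 3 higher at an unadjusted p under 0.05, 1 in DESeq2 and 0 in limma-voom. Malat1, called by DESeq2, had 759, 1725 and 913 CPM in SOHU and 612, 597 and 658 CPM in naive libraries (log2 fold change 0.86, adjusted p = 0.0592).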

How the data were processed

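RNA was sequenced from anti-HA pull-downs of mouse retina, in 3 SOHU and 3 naive libraries, grouped by their titles. Raw read counts for each gene were deposited by the authors, and the 6 files of single libraries equalled the table of all of them. The tools named, per the submitters' processing notes, are featureCounts, HISAT2, HISAT, Trim Galore, MultiQC and bcl2fastq 2.17, with build mm10. Their settings, the strand mode, the handling of reads with several alignments and the annotation release were not given in the sources used here. Symbols came from GENCODE M21 by Ensembl identifier for 55154 of 55335 genes, and 54899 of these had the same chromosome, start and end there.

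From the counts, genes were filtered with filterByExpr by group (17687 kept, with 99.8% to 99.9% of a library's reads), scaled by TMM and compared in R 4.3.3 with edgeR 4.0.16, by its robust quasi-likelihood test, with Benjamini-Hochberg adjustment over all genes tested and calls at an adjusted p under 0.05. CPM are counts divided by the TMM-adjusted library total, and RPKM are CPM per kilobase of exon. Log2 fold changes are SOHU over naive. Alternatives were DESeq2 1.42.0, limma-voom 3.58.1, other scalings and filters, a replicate block and each library left out. Stem-loops, promoter motifs and shared words were found by exact letter match.

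Genes described with values were all called histone genes, the 12 with the highest mean CPM, those at the read minimum, and members of lists with the smallest p or the highest level. H3f3b, Malat1, Pcna, Slbp and the remaining histone genes were added by choice. The histone genes and all lists were chosen with earlier results of these data known. Library totals of 21691354 to 26824919 reads set the precision, which is lowest for genes near 10 reads.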

Additional observations from a re-analysis of the deposited data

How the results depend on the processing

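RLE or upper-quartile scaling, other filters, DESeq2, limma-voom and a replicate block left 8 to 11 histone genes higher and 0 lower, with the median log2 fold change at 0.61 to 0.70. Scaled to ganglion cell markers, 23 were called, all 23 higher, with a median of 1.76, as were 12005 of all genes, whose own median was 1.09. That scaling reversed Hist1h1e (0.82), Hist1h4d (0.97), Hist2h4 (0.65), Hist3h2ba (0.72), Ccne1 (0.45), Pcna (1.08), Slbp (1.07) and H2afy2 (0.35), by its own construction. DESeq2 called 3775 genes in place of 2467. Pcna was at 0.013 under a read minimum in place of filterByExpr.

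Leaving out each library in turn gave 0 to 9 histone genes called, 0 to 9 higher and 0 to 3895 genes over all. In a check added after seeing the data, DESeq2 then called 6 to 11 histone genes and 9.74% to 26.1% of all genes. With limma-voom it was 0 to 10 histone genes and 0.0% to 22.3% of all genes. The cause was not tested. Leave-one-out log2 fold changes crossed 0 for Hist1h1b (-0.19 to 0.60, and -0.040 without naive replicate 3), Hist1h2bh (-0.038 to 0.57), Hist1h4d (-0.20 to 0.055), Pcna (-0.064 to 0.070) and Slbp (-0.14 to 0.055), none of them called. The summed level, SOHU over naive, was 1.64, and 1.27 without Hist1h2bc.

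With a replicate block 8 histone genes and 2070 genes were called. Hist1h3d was lost (adjusted p = 0.0531) and Hist1h2be gained (0.0464), and Ccne1 was lost (0.0649). Same-numbered libraries correlated at 0.163, 0.251 and 0.004 in their deviations from the group means, and unlike-numbered libraries at -0.280 to 0.095. These values do not settle whether the numbers pair the samples, and the main test did not pair them. Read minimums of 5 or 20 reads in 3 libraries kept 36 or 22 histone genes.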
